A study of Mus musculus with 20 samples.

Results

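The levels of 10 genes that are widely reported as direct targets of the microRNA miR-34a were compared between mice with and without miR-34a. The 10 genes were Sirt1, Bcl2, Notch1, Jag1, Dll1, Met, Ccnd1, Cdk6, E2f3 and Foxp1, listed by symbol from the literature on miR-34a, and they were 10 of the 39056 genes in the count table. All 10 passed the filter on low counts, and 16107 genes passed in all.

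The samples were stranded mRNA libraries of the left hippocampus from 20 female C57BL/6 mice of 12 to 13 months, 5 mice to a group. The 4 genotypes were miR-34a WT Non-Tg mice (miR34a+/+ without the transgene), miR-34a KO Non-Tg mice (miR34a-/- without the transgene), miR-34a WT Tg-SwDI mice (miR34a+/+ with the transgene) and miR-34a KO Tg-SwDI mice (miR34a-/- with the transgene). The Tg-SwDI transgene encodes human amyloid precursor protein with the Swedish, Dutch and Iowa mutations under the Thy1 promoter, which is active mainly in neurons. The KO was constitutive, so that miR-34a was missing in all cell types and from development on. A mouse is called by its group and the replicate number of its label.

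MicroRNAs act through the seed, the bases 2 to 8 counted from the 5′ end of the mature strand, which pairs with complementary sites in the 3'UTR of messenger RNAs. A paired messenger is translated less or decays sooner. Mir34a is transcribed under the control of p53, and its known targets restrain cell death, drive the G1-S step of the cell cycle, or carry Notch and Met signals.

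The mature miR-34a-5p strand and 3 other mouse microRNAs with the same seed are shown because they define the sites searched for, with the seed in capitals. Sequences and positions are those of RefSeq on GRCm38.p6, the build of mm10, and their levels were not measured here. Mouse miR-34c-5p, of the same seed family, is not shown because it was absent from the RefSeq sequences used.
miR-34a-5p, chr4:150068473-150068494, plus strand: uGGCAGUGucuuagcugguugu
miR-34b-5p, chr9:51103610-51103632, minus strand: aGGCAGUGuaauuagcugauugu
miR-449a-5p, chr13:113037549-113037570, plus strand: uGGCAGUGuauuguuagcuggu
miR-449c-5p, chr13:113036008-113036028, plus strand: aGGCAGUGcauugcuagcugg

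The longest annotated 3'UTR of each of the 10 genes (GENCODE M21 on mm10, sense strand only) was searched for CACTGCCA (8mer, the complement of the seed followed by A), CACTGCC (7mer-m8, the complement of the seed) and ACTGCCA (7mer-A1, the complement of bases 2 to 7 followed by A), and each position was counted once, under the longest match. All 10 genes held at least 1 match, and 23 matches were found in all, of which 3 were 8mers, 13 were 7mer-m8 and 7 were 7mer-A1. A match is a description of these letters and not evidence that the site is used. The window around the first match of the longest type in each gene is printed, since such sites are where a microRNA with this seed can pair, with the match in capitals and its coordinates before it. All of them lay in the last exon, in the 3'UTR.
Sirt1, 7mer-A1, chr10:63319849-63319855, minus strand, exon 14 of 14, base 781 of the 3'UTR: gcatagatcttcaccacaaatACTGCCAag
Bcl2, 7mer-A1, chr1:106543060-106543066, minus strand, exon 2 of 2, base 198 of the 3'UTR: aaatggtcgaatcagctatttACTGCCAaa
Notch1, 7mer-m8, chr2:26459338-26459344, minus strand, exon 34 of 34, base 187 of the 3'UTR: tacttttattttccacagaaaCACTGCCtt
Jag1, 7mer-m8, chr2:137081671-137081677, minus strand, exon 26 of 26, base 1347 of the 3'UTR: gtttagatttgccgtagagtaCACTGCCtg
Dll1, 8mer, chr17:15367858-15367865, minus strand, exon 11 of 11, base 165 of the 3'UTR: gagttagcagaggcgcccgaCACTGCCAgc
Met, 7mer-m8, chr6:17571900-17571906, plus strand, exon 22 of 22, base 77 of the 3'UTR: tatcccttccccaacagttctCACTGCCtg
Ccnd1, 7mer-A1, chr7:144930745-144930751, minus strand, exon 5 of 5, base 1856 of the 3'UTR: tgttttgttttacaatgtcagACTGCCAtg
Cdk6, 8mer, chr5:3522993-3523000, plus strand, exon 8 of 8, base 2202 of the 3'UTR: cctcacagctctgctgccgaCACTGCCAac
E2f3, 8mer, chr13:29907164-29907171, minus strand, exon 7 of 7, base 2732 of the 3'UTR: gatagcaattcatttgtaaaCACTGCCAga
Foxp1, 7mer-m8, chr6:98929569-98929575, minus strand, exon 18 of 18, base 515 of the 3'UTR: cacagcgctgcatgttgatacCACTGCCtt

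Notch1 held 5 matches in a 3'UTR of 1628 bases, Cdk6 held 4 in 10217 bases and Foxp1 held 3 in 4752 bases. Sirt1, Dll1, Met and E2f3 held 2 matches each, and Bcl2, Jag1 and Ccnd1 held 1 each. The 3 genes with an 8mer were Dll1, Cdk6 and E2f3. For comparison, 23.6% of the 14702 genes tested with an annotated 3'UTR held at least 1 match, 6.03% held an 8mer and 1.44% held 3 or more matches. Searching all protein-coding transcripts of each gene gave the same number of matches for each of the 10 genes.

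**Figure D1:**
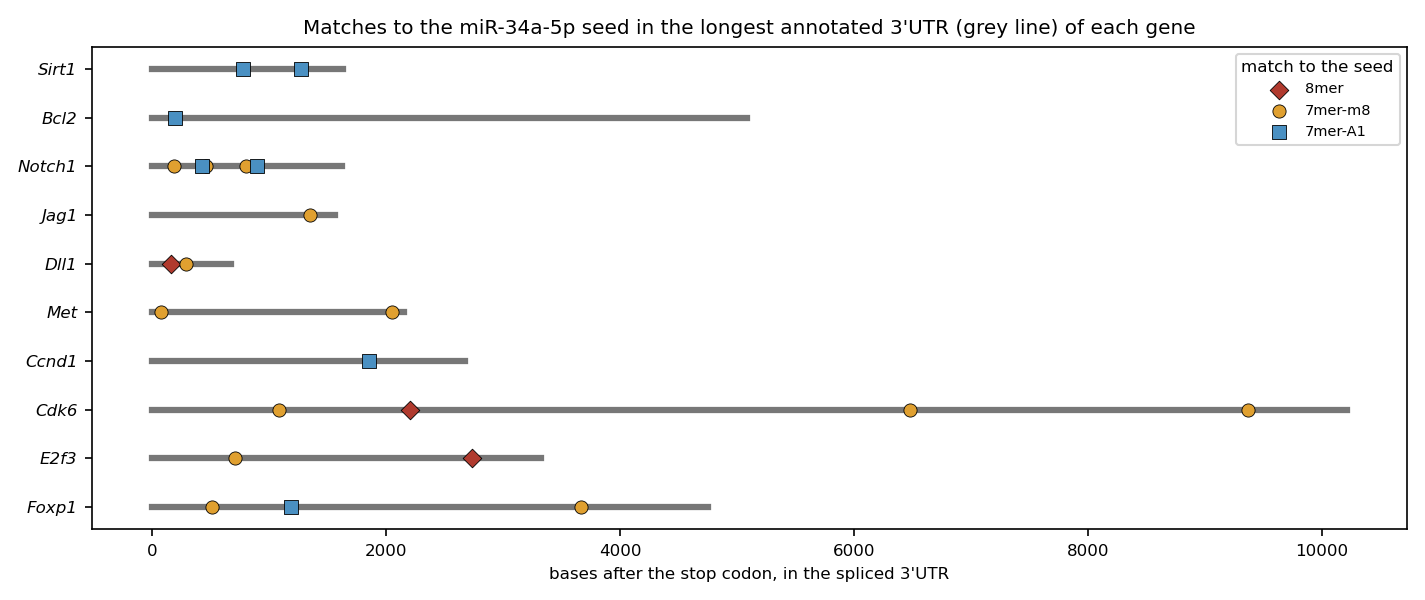
Matches to the miR-34a-5p seed along the longest annotated 3'UTR of each gene. The horizontal axis gives bases after the stop codon, grey lines give the length of the 3'UTR, and symbols mark 8mer, 7mer-m8 and 7mer-A1 matches. The 5 matches of Notch1 all lie in the first part of its 3'UTR, the last of them at base 901, and the 4 of Cdk6 are spread over 10217 bases.

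Each mouse had 19549622 to 21066868 counts on genes. Levels are given as CPM, counts scaled to a common library size with TMM factors, and log2 CPM correlated between libraries with Pearson's r from 0.975 to 0.995. The TMM factor was 0.901 in KO Tg-SwDI replicate 8 and 0.981 to 1.03 in all other mice. Within its group that mouse had the highest CPM of Foxp1, Ccnd1 and Cdk6 and the lowest of Sirt1, Bcl2 and Dll1. The level of Thy1, the gene whose promoter was used for the transgene, was 684 to 769 CPM without the transgene, 1903 to 2327 CPM in WT Tg-SwDI and 2452 to 3316 CPM in KO Tg-SwDI mice. Mature miR-34a itself is too short for these libraries. Gm13067, a gene upstream of Mir34a on the same strand, had 0 to 1 counts in the WT and 4 to 10 in the KO Non-Tg mice, and 0 to 3 in the WT and 3 to 11 in the KO Tg-SwDI mice. The summed levels of CA1, CA3 and dentate gyrus markers were at least 572, 666 and 404 CPM in every mouse. The summed level of 12 choroid plexus markers varied from 69.1 to 4513 CPM between mice, with a median of 1986 CPM in WT Non-Tg, 141 CPM in KO Non-Tg, 3608 CPM in WT Tg-SwDI and 3362 CPM in KO Tg-SwDI mice. No KO Non-Tg mouse was above 366 CPM, whereas each other group held mice on both sides of that level, and the transgene calls of Bcl2 and Foxp1 and the interaction calls of named genes are also given with a choroid plexus covariate. Since 1 group alone was low throughout, this covariate partly went with the interaction, and an interaction call lost with it cannot be judged by that fit. All values come from whole tissue, so that a lower share of the cells that express a gene and less of its RNA per cell cannot be told apart.

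Per kilobase of exon, which allows levels to be compared between genes, Ccnd1 was highest of the 10 genes at 8.32 ± 0.820 CPM per kb (SD, n = 20). It was followed by E2f3 at 6.44 ± 0.334, Foxp1 at 5.40 ± 0.414, Sirt1 at 3.90 ± 0.260, Notch1 at 1.94 ± 0.152 and Bcl2 at 1.68 ± 0.157 CPM per kb. The lowest levels were those of Jag1 at 1.20 ± 0.109, Dll1 at 1.17 ± 0.138, Met at 0.802 ± 0.141 and Cdk6 at 0.304 ± 0.0640 CPM per kb. Over the 20 mice the ranges of neighbours in this order overlapped except between Foxp1 and Sirt1, between Sirt1 and Notch1, and between Met and Cdk6. Counts per mouse ran from 1235 to 1687 for Foxp1 at the upper end and from 62 to 116 for Cdk6 and 66 to 123 for Dll1 at the lower end. The coefficient of variation of the CPM over the 20 mice was between 5.18% for E2f3 and 21.03% for Cdk6, with Met at 17.6% and Dll1 at 11.8%.

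Relatives of the targets were measured on the same scale, as group means of CPM per kb. Sirt2, a cytosolic deacetylase abundant in oligodendrocytes, had 25.1 to 31.3, above the 3.78 to 4.07 of Sirt1. Notch2 had 3.18 to 4.03 and Jag2 4.07 to 4.90, above Notch1 at 1.85 to 2.05 and Jag1 at 1.16 to 1.26. Foxp4 had 11.5 to 13.3, above Foxp1 at 5.005 to 5.75, while Foxp2 had 0.162 to 0.252 and Foxp3 at most 0.0879. Among the D cyclins Ccnd2 had 10.2 to 10.96, Ccnd1 7.67 to 9.05 and Ccnd3 3.14 to 4.23. In CPM, without division by length, Foxp1 instead lay above Foxp4, with group means of 68.8 to 79.1 against 56.7 to 65.7 CPM.

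The first question was whether loss of miR-34a changed its classical targets in Tg-SwDI mice. By the threshold used it was not detected for any of them, since 0 of the 10 genes passed an adjusted p of 0.05 in the comparison of KO with WT Tg-SwDI mice (quasi-likelihood test of edgeR), where 1.99% of the 16107 genes tested were called (320 genes, 239 of them higher in KO, or, scaled by library size alone, 217 genes, 102 of them higher). None of the 10 had an unadjusted p under 0.05 either, where 3053 of the 16107 genes tested had one, and the lowest was 0.0876 for Met. DESeq2 and edgeR's exactTest also called 0 of 10. In Non-Tg mice 0 of the 10 genes were called between KO and WT, against a background of 0% of the genes tested, with 0 of 10 at an unadjusted p under 0.05 and 0 of 10 by DESeq2 and by the exactTest. In Non-Tg mice the quasi-likelihood test called 0 genes in all, with 1302 (8.08%) at an unadjusted p under 0.05, while DESeq2 called 7 and the exactTest 4. With the choroid plexus covariate 0 of the 10 genes were called in either comparison.

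In Tg-SwDI mice the log2 fold changes (KO over WT) of the 10 genes ran from -0.10 for Sirt1 to 0.25 for Met, with a median of 0.05, beside a median of 0.0026 over all genes tested. In Non-Tg mice they ran from -0.06 for Jag1 to 0.11 for Ccnd1, with a median of 0.04, beside -0.0021 over all genes. These medians moved with single choices, among them a replicate block, which fits the replicate number of the label as a factor. Some replicate numbers occurred only in KO or only in WT mice. The block therefore partly went with genotype, and a call lost with it cannot be told apart from this overlap. In Tg-SwDI mice the median was -0.0037 with library size alone, -0.023 with the replicate block and 0.00934 without KO Tg-SwDI replicate 2, and over all fits that left out 1 mouse it reached 0.08. In Non-Tg mice it was 0.00595 with the choroid plexus covariate, -0.00092 without WT Non-Tg replicate 7 and 0.0113 without KO Non-Tg replicate 1. In Tg-SwDI mice 8 of the 10 lay above 0 and in Non-Tg mice 7 of the 10, where 50.7% and 49.1% of all genes tested did. The median size of the change, without sign, was 0.08 for the 10 genes and 0.10 for all genes in Tg-SwDI mice, and 0.05 and 0.07 in Non-Tg mice. The highest upper bound of the 95% intervals was 0.54, a 1.45-fold rise, for Met in Tg-SwDI mice, and 0.38, a 1.30-fold rise, for Met in Non-Tg mice.

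**Figure D2:**
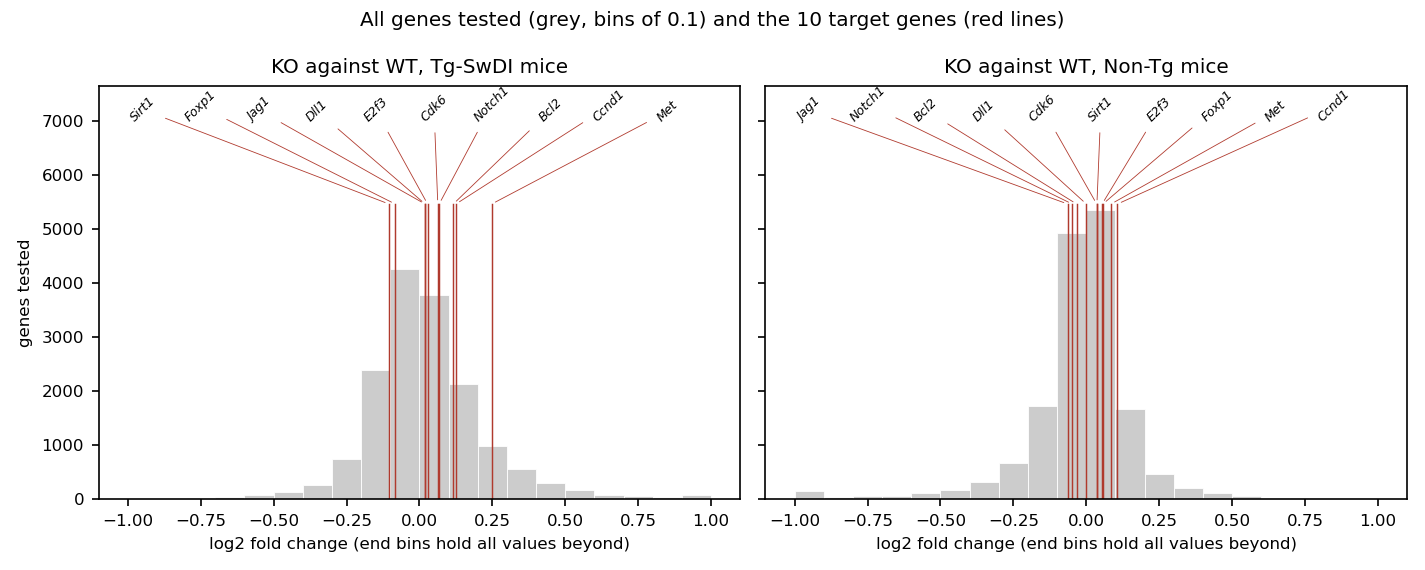
Log2 fold changes (KO over WT) of all 16107 genes tested in bins of 0.1 (grey bars, number of genes), with the 10 target genes as red lines, in Tg-SwDI mice (left) and Non-Tg mice (right). The 10 genes lie between -0.10 and 0.25 on the left and between -0.06 and 0.11 on the right, inside the bulk of all genes.

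Sirt1 is an NAD-dependent deacetylase of p53 and of histones, and Bcl2 is an anti-apoptotic protein of the mitochondrial membrane. Sirt1 (ENSMUSG00000020063, chr10:63319005-63381704, minus strand) had 17.99, 18.9, 20.6, 21.3 and 22 CPM in the KO Tg-SwDI mice and 19.98, 20.5, 22.2, 22.4 and 23.3 CPM in the WT Tg-SwDI mice. It had 19.7, 19.9, 20.5, 21.9 and 22.6 CPM in the KO Non-Tg mice and 18.6, 20.5, 20.7, 20.9 and 21.2 CPM in the WT Non-Tg mice. The groups overlapped with and without the transgene, with 2 of the 5 KO Tg-SwDI mice below every WT Tg-SwDI mouse. The log2 fold change of Sirt1 was -0.10 (standard error 0.07, 95% interval -0.24 to 0.03, edgeR adjusted p = 0.403) in Tg-SwDI mice and 0.04 (standard error 0.07, 95% interval -0.10 to 0.17, edgeR adjusted p = 0.950) in Non-Tg mice.

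Bcl2 (ENSMUSG00000057329, chr1:106538178-106714274, minus strand) had 14.6, 16.7, 17.3, 17.6 and 17.9 CPM in the KO Tg-SwDI mice and 13.8, 15.1, 15.8, 16.1 and 16.8 CPM in the WT Tg-SwDI mice. It had 13.5, 14.2, 14.3, 14.4 and 15.6 CPM in the KO Non-Tg mice and 12.8, 14.4, 14.98, 14.98 and 16.5 CPM in the WT Non-Tg mice. In Tg-SwDI mice 3 of the 5 KO mice lay above every WT mouse and the lowest KO mouse lay within the WT range, and in Non-Tg mice the KO values all lay inside the WT range. Its log2 fold change was 0.12 (standard error 0.07, 95% interval -0.04 to 0.27, edgeR adjusted p = 0.415) in Tg-SwDI mice and -0.03 (95% interval -0.19 to 0.12, edgeR adjusted p = 0.969) in Non-Tg mice.

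Notch1 is a cell surface receptor whose intracellular part moves to the nucleus when it is cut, and Jag1 and Dll1 are ligands of Notch receptors on neighbouring cells. Notch1 (ENSMUSG00000026923, chr2:26457903-26516663, minus strand), the gene with the most seed matches, had 27.5, 28.1, 28.2, 29.9 and 31.96 CPM in the KO Tg-SwDI mice and 25.8, 26.04, 27.3, 28.9 and 30.99 CPM in the WT Tg-SwDI mice. It had 23.6, 25.9, 27.1, 27.3 and 27.6 CPM in the KO Non-Tg mice and 24.9, 25.2, 26.8, 27.9 and 31 CPM in the WT Non-Tg mice. The groups overlapped with and without the transgene, with 1 KO Tg-SwDI mouse above all WT Tg-SwDI mice and 1 KO Non-Tg mouse below all WT Non-Tg mice. There were log2 fold changes of 0.07 (standard error 0.07, edgeR adjusted p = 0.623) in Tg-SwDI mice and -0.05 (standard error 0.07, edgeR adjusted p = 0.933) in Non-Tg mice.

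Jag1 (ENSMUSG00000027276, chr2:137081456-137116644, minus strand) ran from 5.94 to 7.90 CPM in KO and 5.89 to 7.42 CPM in WT Tg-SwDI mice, and from 6.27 to 7.69 CPM in KO and 6.74 to 8.17 CPM in WT Non-Tg mice. Dll1 (ENSMUSG00000014773, chr17:15367354-15376872, minus strand) ran from 3.63 to 5.58 CPM in KO and 4.11 to 5.25 CPM in WT Tg-SwDI mice, and from 4.70 to 5.83 CPM in KO and 4.53 to 5.59 CPM in WT Non-Tg mice. Neither ligand separated the groups. The log2 fold changes were 0.02 (95% interval -0.18 to 0.22) and -0.06 (95% interval -0.26 to 0.13) for Jag1 in Tg-SwDI and Non-Tg mice. Those of Dll1 were 0.02 (95% interval -0.23 to 0.26) and 0.00035 (95% interval -0.24 to 0.24), with edgeR adjusted p-values between 0.938 and 0.9995 for both genes. Dll1 was counted 66 to 123 times per mouse.

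Met is the receptor tyrosine kinase for hepatocyte growth factor. Met (ENSMUSG00000009376, chr6:17463800-17573980, plus strand) had 5.96, 6.11, 6.35, 7.66 and 8.88 CPM in the KO Tg-SwDI mice and 4.87, 5.64, 5.89, 6.02 and 7.04 CPM in the WT Tg-SwDI mice. It had 4.54, 4.79, 6.16, 7.18 and 7.54 CPM in the KO Non-Tg mice and 4.89, 5.43, 5.85, 6.11 and 6.20 CPM in the WT Non-Tg mice. The highest 2 of the 5 KO Tg-SwDI mice lay above all WT Tg-SwDI mice and the others lay within their range, while the KO Non-Tg mice lay on both sides of the WT Non-Tg mice. In Tg-SwDI mice Met had the largest difference of the 10 genes. Its log2 fold change was 0.25 (standard error 0.14, edgeR adjusted p = 0.344) in these mice and 0.08 (standard error 0.14, edgeR adjusted p = 0.946) in Non-Tg mice, where Ccnd1 had the larger value.

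Ccnd1 (cyclin D1) binds and activates the kinases Cdk4 and Cdk6, which release E2F factors such as E2f3 from the retinoblastoma protein. Ccnd1 (ENSMUSG00000070348, chr7:144929931-144939925, minus strand) had 37.7, 41.1, 41.6, 45.7 and 46.8 CPM in the KO Tg-SwDI mice and 36.1, 37.2, 38.02, 39.5 and 44.3 CPM in the WT Tg-SwDI mice. It had 35.6, 36.5, 39.7, 40.5 and 42.4 CPM in the KO Non-Tg mice and 32.5, 34.3, 34.7, 37.5 and 41.7 CPM in the WT Non-Tg mice. The KO means were the higher ones with and without the transgene but the groups overlapped, with 2 of the 5 KO Tg-SwDI mice and 1 of the 5 KO Non-Tg mice above all their WT counterparts. The log2 fold change was 0.13 (standard error 0.07, edgeR adjusted p = 0.359) in Tg-SwDI mice and 0.11 (standard error 0.07, edgeR adjusted p = 0.759) in Non-Tg mice.

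Cdk6 (ENSMUSG00000040274, chr5:3341485-3531008, plus strand) had 3.57, 4.36, 4.49, 5.89 and 6.38 CPM in the KO Tg-SwDI mice and 4.15, 4.37, 4.45, 5.29 and 5.30 CPM in the WT Tg-SwDI mice. It had 3.36, 3.58, 3.81, 3.97 and 3.98 CPM in the KO Non-Tg mice and 3.07, 3.20, 3.29, 4.04 and 4.63 CPM in the WT Non-Tg mice. The KO Tg-SwDI mice lay on both sides of the WT Tg-SwDI mice, and the KO Non-Tg mice all lay inside the WT Non-Tg range. Cdk6 had log2 fold changes of 0.06 (95% interval -0.23 to 0.36, edgeR adjusted p = 0.851) in Tg-SwDI mice and 0.04 (95% interval -0.27 to 0.34, edgeR adjusted p = 0.981) in Non-Tg mice.

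E2f3 (ENSMUSG00000016477, chr13:29906575-29986063, minus strand), which varied least of the 10 genes, ran from 31.9 to 37.3 CPM in KO and 30.9 to 36.8 CPM in WT Tg-SwDI mice, and from 33.8 to 38.5 CPM in KO and 33.2 to 35.96 CPM in WT Non-Tg mice. Its log2 fold changes were 0.03 (95% interval -0.09 to 0.14, edgeR adjusted p = 0.831) and 0.05 (95% interval -0.06 to 0.17, edgeR adjusted p = 0.875).

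Foxp1 is a forkhead repressor of transcription that is found in hippocampal CA1 and striatal neurons. Foxp1 (ENSMUSG00000030067, chr6:98925338-99522721, minus strand) had 63.3, 65.3, 66.5, 70.4 and 78.7 CPM in the KO Tg-SwDI mice and 67.1, 69.8, 71.5, 77.01 and 78.9 CPM in the WT Tg-SwDI mice. It had 75.1, 77.7, 80.6, 80.7 and 81.5 CPM in the KO Non-Tg mice and 71.7, 74.5, 75.5, 77.01 and 81.4 CPM in the WT Non-Tg mice. In Tg-SwDI mice 3 of the 5 KO mice lay below every WT mouse and 1 lay near the top of the WT range, and in Non-Tg mice the groups overlapped. The KO Tg-SwDI mouse near the top was replicate 8, which had the lowest TMM factor. The log2 fold change was -0.08 (standard error 0.06, edgeR adjusted p = 0.446) in Tg-SwDI mice and 0.06 (standard error 0.06, edgeR adjusted p = 0.870) in Non-Tg mice.

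**Figure D3:**
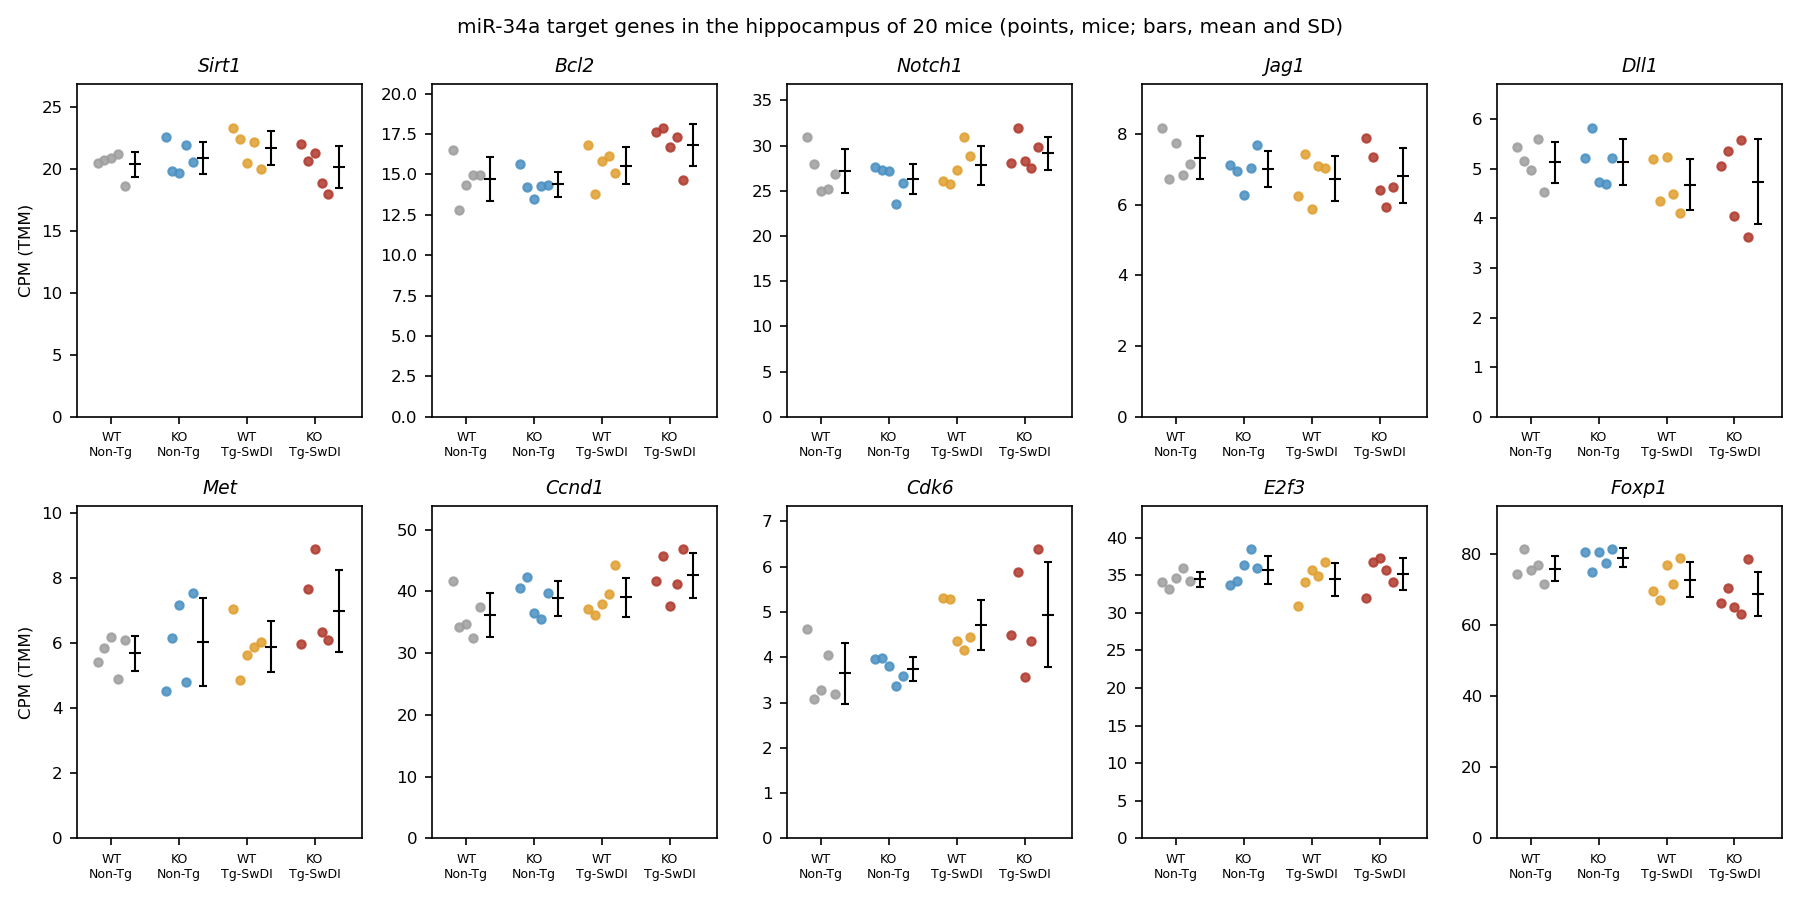
Level of each target gene (vertical axis, CPM with TMM factors, from 0) in every mouse (points) of the 4 groups, with the mean and SD of each group of 5 mice as black bars. KO and WT mice overlap in every panel, both with and without the transgene.

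In exact two-sided permutation tests of 5 against 5 mice on log2 CPM, none of the 20 comparisons of KO with WT gave a p under 0.05. The lowest was 0.135, for Met in Tg-SwDI mice, and the smallest p that this design allows is 0.00794. In 0 of the 10 genes did KO and WT mice separate without overlap with or without the transgene, a separation that 3.16% of all genes tested showed in Tg-SwDI mice and 2.23% in Non-Tg mice. These p-values are unadjusted, among 40 such tests of single genes.

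Whether the KO effect differed with the transgene was tested by the interaction. It was called for 0 of the 10 genes, where 0.608% of the genes tested were called, with 0 of 10 at an unadjusted p under 0.05 by edgeR (17.5% of all genes) and 0 of 10 by DESeq2. The differences of the log2 fold changes (Tg-SwDI minus Non-Tg) ran from -0.14 for Sirt1 to 0.16 for Met, with 95% intervals between -0.39 and 0.57 and edgeR adjusted p-values from 0.368 to 0.965. Averaged over Tg-SwDI and Non-Tg mice, which sets 10 KO against 10 WT mice, 0 of the 10 genes were called and 0.0807% of the genes tested were (13 genes), and DESeq2 also called 0 of the 10. Ccnd1 came nearest by its p-value, with a log2 fold change of 0.12 (standard error 0.05, edgeR adjusted p = 0.4997), and it was the only one of the 10 with an unadjusted p under 0.05, at 0.0326, where 9.31% of all genes had one. The average for Met was 0.17 (standard error 0.10, edgeR adjusted p = 0.618), the largest of the 10.

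The 10 genes were also compared between Tg-SwDI and Non-Tg mice. Bcl2 rose and Foxp1 fell with the transgene in KO mice, 2 of 10 genes called against 20.8% of all genes tested, a share near that of all genes. At an unadjusted p under 0.05 by edgeR there were 4 of 10 in KO mice, beside 33.5% of all genes. In WT mice 0 of the 10 genes were called, against 4.41% of all genes, with 1 of 10 (Cdk6) at an unadjusted p under 0.05 (15.2% of all genes) and 0 of 10 by DESeq2 and by the exactTest. The comparison in KO mice shares the KO Tg-SwDI mice with the KO comparison above.

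Among KO mice the mean of Bcl2 was 16.8 ± 1.30 CPM (SD, n = 5) with the transgene and 14.4 ± 0.770 CPM (SD, n = 5) without it, and 4 of the 5 KO Tg-SwDI mice lay above every KO Non-Tg mouse. This was a log2 fold change of 0.23 (standard error 0.07, edgeR adjusted p = 0.0336, exact permutation p = 0.0159, or 0.0794 on CPM without TMM), beside 0.08 (standard error 0.07, edgeR adjusted p = 0.709) in WT mice. When the choroid plexus score entered as a covariate, Bcl2 in KO mice was at 0.22 and was not called (edgeR adjusted p = 0.169). The score was -2.696 to -0.9357 in the KO Non-Tg mice. It was -1.916 in KO Tg-SwDI replicate 2 and 0.9876 to 1.857 in the other KO Tg-SwDI mice. In KO mice the score thus largely went with the transgene, and this fit cannot tell them apart. Bcl2 was not called either without KO Non-Tg replicate 2, 4, 7 or 8 or without KO Tg-SwDI replicate 1, 3 or 5, where the value stayed between 0.20 and 0.23. Nor was it called with library size alone (edgeR adjusted p = 0.107), without a filter (adjusted p = 0.0642) or with the replicate block (adjusted p = 0.120).

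Among KO mice the mean of Foxp1 was 68.8 ± 6.10 CPM (SD, n = 5) with the transgene and 79.1 ± 2.68 CPM (SD, n = 5) without it, with 4 of the 5 KO Tg-SwDI mice below every KO Non-Tg mouse. Its log2 fold change was -0.20 (standard error 0.06, edgeR adjusted p = 0.0131, exact permutation p = 0.0238) in KO mice, beside -0.06 (standard error 0.06, edgeR adjusted p = 0.686) in WT mice. When that score entered as a covariate it was -0.13 and was not called (edgeR adjusted p = 0.252), and without KO Tg-SwDI replicate 5 it was -0.16 (edgeR adjusted p = 0.0622). With the GC and length trend removed it was -0.15 (edgeR adjusted p = 0.0505). The interaction, which is also the difference between these transgene effects, was not called for Bcl2 (0.15, edgeR adjusted p = 0.475) or for Foxp1 (-0.14, edgeR adjusted p = 0.368).

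Cdk6 had the largest value of the 10 genes with the transgene, with log2 fold changes of 0.40 (standard error 0.14, edgeR adjusted p = 0.0524) in KO mice and 0.37 (standard error 0.15, edgeR adjusted p = 0.191) in WT mice. Notch1 was at 0.15 (standard error 0.07, edgeR adjusted p = 0.124) in KO mice and 0.03 (standard error 0.07) in WT mice. Neither passed the adjusted threshold in either genotype, though the exact permutation p was 0.0476 for Cdk6 in both genotypes and 0.0159 for Notch1 in KO mice, unadjusted. On CPM without TMM the exact permutation p of Notch1 in KO mice was 0.103, and those of Cdk6 stayed at 0.0476. Markers of other cell types moved with the transgene as well. These counts are read against 20.8% of all genes called in KO and 4.41% in WT mice. All 12 microglia markers rose in both genotypes, with summed levels of 492 to 676 CPM in the Non-Tg mice, 1137 to 1384 CPM in the WT Tg-SwDI and 1470 to 1868 CPM in the KO Tg-SwDI mice. No microglia marker was at 0 in all mice. Of the 10 astrocyte markers 5 rose in each genotype, 1 of 8 neuron markers (Syt1) fell in KO mice, 3 of 5 CA1 markers fell in KO mice, and 10 of 12 choroid plexus markers rose in KO mice. Of the 10 oligodendrocyte markers 5 rose in KO and 1 in WT mice, of the 9 striatum markers 3 rose and 1 fell in KO mice, 1 of 7 precursor markers rose in KO mice, and 1 of 8 endothelium markers rose in KO and 1 fell in WT mice. In CA3, dentate gyrus, mural, thalamus and blood lists 0 markers were called by edgeR with the transgene, with 0 to 3 per list at an unadjusted p under 0.05. The summed level of the neuron markers was 5882 to 6747 CPM in the KO Tg-SwDI and 6418 to 6972 CPM in their Non-Tg counterparts. Their part in the values of Bcl2, Foxp1, Cdk6 and Notch1 was not tested beyond the choroid plexus covariate.

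**Figure D4:**
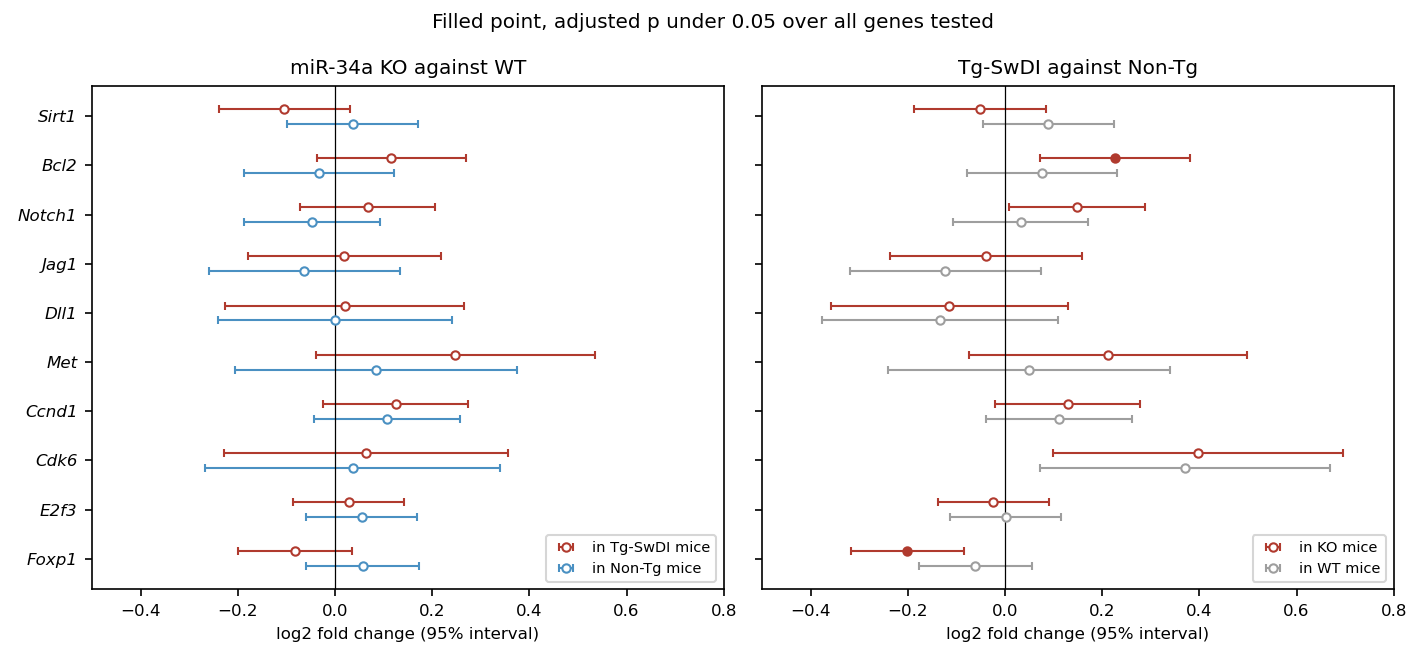
Log2 fold changes of the 10 genes with 95% intervals (horizontal axis), for KO against WT (left; red, Tg-SwDI mice; blue, Non-Tg mice) and for Tg-SwDI against Non-Tg (right; red, KO mice; grey, WT mice). Filled points passed an adjusted p of 0.05 over all genes tested, which holds for Bcl2 at 0.23 and Foxp1 at -0.20 in KO mice on the right and for no point on the left.

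The pathways around the 10 genes were read from gene lists that hold some of the 10 themselves. Of 4 Notch receptors, only Notch3, a receptor of mural cells, was called between KO and WT Tg-SwDI mice, with a log2 fold change of 0.51 (standard error 0.11, edgeR adjusted p = 0.0167). The summed level of 7 mural and smooth muscle markers lay between 256 and 299 CPM in KO and between 211 and 251 CPM in WT Tg-SwDI mice, none of the 7 was called by edgeR (3 of 7 had an unadjusted p under 0.05), and their part in the value of Notch3 was not tested. Without WT Tg-SwDI replicate 7 Notch3 was at 0.48 (edgeR adjusted p = 0.0594), and with the replicate block at 0.38 (edgeR adjusted p = 0.280). Of 5 Notch ligands and 6 Notch targets (Hes and Hey genes and Nrarp) none was called in Tg-SwDI mice, and none of these 11 had an unadjusted p under 0.05. Of 21 genes of Notch processing and its nuclear partners, 7 had an unadjusted p under 0.05 by edgeR, 6 of them higher in KO, and 1 was called. That gene was Psenen, a subunit of gamma-secretase, which rose by 0.26 (standard error 0.06, edgeR adjusted p = 0.0409) and also passed the interaction (0.39, edgeR adjusted p = 0.0455). The KO call of Psenen was lost without KO Non-Tg replicate 4 or 8, without any 1 of the 5 WT Tg-SwDI mice, and without KO Tg-SwDI replicate 3, 5 or 8, with adjusted p-values up to 0.101. It was also lost with library size alone, the compared groups alone, the replicate block and the GC and length trend removed, with adjusted p-values up to 0.197. The call of its interaction held in 5 of the 20 fits that left out 1 mouse, and with the choroid plexus covariate it was lost (0.34, edgeR adjusted p = 0.1325).

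For KO against WT Tg-SwDI mice the edgeR test called no gene among 26 genes of the G1-S step, 15 of the Bcl2 family, 13 sirtuins and NAD enzymes, 10 of Hgf-Met signalling, 3 Foxp factors, 16 of the p53 pathway and 13 of microRNA processing and silencing. At an unadjusted p under 0.05 there were 3, 5, 0, 2, 1, 2 and 3 genes in these lists, where 3053 of all 16107 genes had one. Their median log2 fold changes were 0.06, 0.12, 0.06, 0.11, 0.21, 0.05 and -0.05, beside 0.0026 over all genes. Tnrc6b, which links Argonaute to silencing, passed the interaction test with -0.34 (standard error 0.08, edgeR adjusted p = 0.0345), a call that held in 10 of the 20 fits that left out 1 mouse and was lost with the choroid plexus covariate (-0.32, edgeR adjusted p = 0.0918). In Non-Tg mice no gene of any of these lists was called between KO and WT, and 0 to 3 genes per list had an unadjusted p under 0.05 (8.08% of all genes).

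Another 40 genes that are reported as miR-34a targets were read in the same way. Between KO and WT Tg-SwDI mice 5 of the 40 were called, beside 1.99% of all genes tested. The 40 genes were listed with earlier results of these data known, so that this share is a description and not a test. Axl, a receptor tyrosine kinase, rose by 0.48 (standard error 0.07, edgeR adjusted p = 0.000673), Csf1r, the receptor on which microglia depend, by 0.56 (standard error 0.08, edgeR adjusted p = 0.000673), Cd44, an adhesion receptor, by 0.59 (standard error 0.11, edgeR adjusted p = 0.00654), and Rras, a small GTPase, by 0.42 (standard error 0.10, edgeR adjusted p = 0.0266). Vegfa, a growth factor of vessels, fell by 0.52 (standard error 0.10, edgeR adjusted p = 0.0145). Of the 40 genes 31 held a seed match in their 3'UTR, among them Axl, Csf1r and Rras with an 8mer each and Vegfa with a 7mer-m8, while Cd44 held none. Axl, Csf1r, Cd44 and Vegfa stayed past the threshold in each of the 20 fits that left out 1 mouse, and Rras did not without WT Tg-SwDI replicate 5 or 7 or KO Tg-SwDI replicate 3 (edgeR adjusted p up to 0.0823). Under the 10 other settings Axl and Csf1r kept their calls. Cd44 lost its call with the replicate block (edgeR adjusted p = 0.178), Vegfa with the replicate block and the compared groups alone (up to 0.231), and Rras with these and with library size alone and the GC and length trend removed (up to 0.280). Csf1r and Cd44 also passed the interaction (edgeR adjusted p = 0.0199 and 0.0236). That of Csf1r was called in 19 and that of Cd44 in 13 of the 20 fits that left out 1 mouse, each in 6 of 8 other settings, and neither with the choroid plexus covariate (edgeR adjusted p = 0.0502 for both). The median log2 fold change of the 40 genes was 0.03, and 22 of them lay above 0.

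Csf1r is also 1 of the 12 microglia markers, of which 4 were called between KO and WT Tg-SwDI mice. All 12 had a log2 fold change above 0 (median 0.35) and an unadjusted p under 0.05 by edgeR. The summed levels of these markers in KO and WT Tg-SwDI mice, given above, did not overlap. Their part in the values of Axl, Csf1r, Cd44, Rras and Vegfa was not tested. In Non-Tg mice 0 of the 40 genes were called by edgeR, with 1 at an unadjusted p under 0.05. Of the other cell type markers, 1 of 10 for astrocytes (Gfap, 0.51) and 1 of 8 for endothelium (Ly6c1, 0.46) rose in KO against WT Tg-SwDI mice, and none was called among the markers tested for oligodendrocytes (10), their precursors (7), neurons (8), CA1 (5), CA3 (5), dentate gyrus (7), mural cells (7), choroid plexus (12), striatum (9), thalamus (7) and blood (4). In these 11 lists 2, 2, 0, 1, 0, 0, 3, 0, 1, 1 and 0 markers had an unadjusted p under 0.05, beside 3053 of all 16107 genes.

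Over all genes with an annotated 3'UTR, the median log2 fold change in Tg-SwDI mice was -0.0049 for the 3468 genes with a seed match and 0.0050 for the 11234 genes without one. In Non-Tg mice the values were 0.02 and -0.0094. In Tg-SwDI mice 1.90% of the genes with a match and 2.20% of those without one were called. Genes with a match had longer 3'UTRs, with a median of 2283 against 943 bases. Log2 fold changes in Tg-SwDI mice followed GC content and exon length (Spearman's rho across genes 0.326 and -0.194). In Non-Tg mice they did so in the other direction (-0.227 and 0.227). The median log2 fold changes of genes with and without a match are therefore a description.

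The genes whose levels followed those of the 10 genes most closely over the 20 mice were found by Pearson's r of log2 CPM, among all genes tested. The points share library depth and the 4 groups, so that r is also given with group means removed. For Foxp1 they were Atf2, with r = 0.914 (0.901 within groups), and Mapk10, with r = 0.899 (0.846). For Bcl2 they were Ndp, with r = 0.845 (0.749), and Plod3, with r = 0.834 (0.706), and for Sirt1 they were Zfp740, with r = 0.834 (0.804), and Ccnl1, with r = 0.796 (0.768). For Notch1 they were Pcdhgc3, with r = 0.766 (0.709), and Lrp1, with r = 0.764 (0.777), and for Ccnd1 they were Plpp3, with r = 0.761 (0.598), and the glutamate transporter gene Slc1a3, with r = 0.753 (0.616).

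Cdk6 was closest to Lrrc56, with r = 0.833 (0.809 within groups), and Wnk1, with r = 0.811 (0.636). Dll1 was closest to Gm45902, with r = 0.783 (0.767), and Cpsf1, with r = 0.775 (0.810), and E2f3 to Islr2, with r = 0.779 (0.761), and Syt13, with r = 0.725 (0.762). Met was closest to Gm38642, with r = 0.744 (0.707), and Igfbpl1, with r = 0.726 (0.771), and Jag1 to Gm28578, with r = 0.712 (0.723), and Lmnb1, with r = 0.681 (0.716).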

How the data were processed

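Left hippocampi of 20 mice, 5 per group by the labels, were sequenced as stranded mRNA. The deposited values are raw counts per gene, which the authors made with STAR on mm10 and featureCounts on Ensembl genes. Versions, the strand setting of the counting and the treatment of reads that map to several genes are not given in the sources used here. Of 39056 gene IDs, 38872 (99.53%) were matched to GENCODE M21 without version numbers.

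Counts were scaled by TMM and filtered by filterByExpr (minimum count 10, minimum total 15). One quasi-likelihood model of edgeR 4.0.16 (R 4.3.3) over the 4 groups, with 16 residual degrees of freedom, gave 6 contrasts, with Benjamini-Hochberg adjustment over 16107 genes at 0.05. It was tested on simulated data. CPM values carry TMM factors, and permutation tests used log2 CPM with a prior count of 2 (scipy 1.17.1). They are exact and two-sided. Alternatives were DESeq2 1.42.0, exactTest, other scalings and filters, the compared groups alone, the replicate block, a choroid plexus covariate, GC and length offsets, and each mouse left out. For the other reported targets they were added after the data were seen.

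The members and lists were chosen with earlier results of these data known. Named were the 10 genes, up to 5 called genes per other list by smallest p, paralogs of the 10 for levels, and the 2 most correlated genes each. The study calls the groups littermates, but the labels tie no mouse to a litter or library batch.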

Additional observations from a re-analysis of the deposited data

How the results depend on the processing

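Across 30 other settings, 0 of 300 values of the 10 genes were called between KO and WT in Tg-SwDI mice (lowest adjusted p 0.144) and 0 of 300 in Non-Tg mice (lowest 0.537), and none was called in the interaction or the average over Tg-SwDI and Non-Tg mice, for which exactTest and the compared groups alone were not run. Small values changed sign, and the cause was not tested. Between KO and WT Tg-SwDI mice, library size alone gave Jag1 -0.024, Dll1 -0.023 and E2f3 -0.017, the replicate block gave Jag1 -0.054, Dll1 -0.059 and Cdk6 -0.12, and removal of the GC and length trend gave Dll1 -0.041. In Non-Tg mice Dll1 was at -0.0010 with RLE factors, -0.0089 with library size alone, -0.0012 without a filter, -0.0017 with a mean CPM of at least 1, -0.00068 with DESeq2 and -0.030 with the choroid plexus covariate, and Cdk6 was at -0.066 with the replicate block and -0.0092 with the GC and length trend removed. With 1 mouse left out, the ranges that crossed 0 in Tg-SwDI mice were -0.037 to 0.068 for Jag1, -0.043 to 0.10 for Dll1, -0.043 to 0.16 for Cdk6 and -0.0079 to 0.064 for E2f3. In Non-Tg mice they were -0.079 to 0.013 for Bcl2, -0.077 to 0.0049 for Notch1, -0.049 to 0.033 for Dll1, -0.0060 to 0.17 for Met and -0.018 to 0.14 for Cdk6, and the transgene effect on Notch1 in WT mice ran from -0.0093 to 0.092.

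In KO mice the number of the 10 genes called with the transgene was 1 with library size alone, 1 without a filter, 1 with the replicate block (Foxp1 in each, without Bcl2), 0 with the choroid plexus covariate and 1 to 3 with 1 mouse left out, and the median of the 10 genes was -0.042 with the GC and length trend removed, against 0.052. On CPM without TMM, exact permutation p-values under 0.05 were found for 1 gene between KO and WT Tg-SwDI mice (Foxp1, p = 0.0238), against 0 with TMM. With the transgene in KO mice they were found for 2 genes (Foxp1 and Cdk6), against 4 with TMM, and Bcl2 was then at 0.0794 and Notch1 at 0.103. Counting only 8mers left 3 genes with a seed match. Of the other reported targets, 3 were called in Tg-SwDI mice when only the compared groups were fitted, 2 with the replicate block, and 4 to 8 with 1 mouse left out.

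Over all genes, 320 were called between KO and WT Tg-SwDI mice, against 8 with the replicate block, 58 with the compared groups alone, 150 with the GC and length trend removed, 559 with the choroid plexus covariate, 565 by exactTest, 733 by DESeq2 and 78 to 701 with 1 mouse left out. The interaction gave 14 to 510 genes over all settings, and 18 with the choroid plexus covariate, which partly went with the interaction. Replicate numbers mark no shared animal. Some occurred only in KO or only in WT mice, so that the replicate block partly went with genotype and its lost calls cannot be judged by that fit. Deviations from group means of 16 pairs of mice with the same number in different groups correlated at -0.404 to 0.154 (2 over 0.1). In 134 pairs with different numbers they correlated at -0.371 to 0.504 (25 over 0.1). The labels give no litter or batch, and a litter or batch shared by mice with the same number was not tested. Cdk6, Dll1, Met and Jag1 had the lowest counts, 62 to 184 per mouse, and counting error was not separated from variation between mice.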

Other observations

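The 10 genes did not move together from mouse to mouse. Over the 45 pairs of the 10 genes, the median Pearson's r of log2 CPM over the 20 mice was -0.02, and 21 pairs lay above 0. Notch1 and Ccnd1 were the closest pair, with r = 0.709 (0.721 with group means removed), and Bcl2 and Foxp1 the most opposed, with r = -0.65 (-0.37 with group means removed). The points share library depth and the 4 groups, and these values are descriptions.

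Each of the 10 genes was also set beside a score for each of 14 cell type marker lists. The score was the mean log2 CPM of the tested markers, with each marker centred over the 20 mice. The largest of the 140 relations was that of Foxp1 with the neuron markers, with r = 0.854 (0.797 with group means removed), again over the 20 mice and as a description.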
